A study of Mus musculus with 2 samples.

Results

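The insulin-like growth factor (IGF) family was described here through 10 genes: the ligands Igf1 and Igf2, the receptors Igf1r and Igf2r, and the binding proteins Igfbp2, Igfbp3, Igfbp4, Igfbp5, Igfbp6 and Igfbp7. They were chosen by name from the 18193 genes that had a probe set of their own, and 28 probe sets belonged to them. Earlier results of these data were known at that choice. The samples were a pair of mouse cell lines labelled as endothelial, both immortalised with the SV40 large T antigen. MS-1 comes from the microvessels of the pancreas and was kept in DMEM with 5% fetal calf serum, and SVEC4-10 comes from an axillary lymph node and was kept in DMEM with 10% fetal calf serum. Each line was grown for 3 to 5 days to confluence, used up to passage 5, and measured on 1 Affymetrix array made from 6 µg of total RNA. With 1 array per line there is no replicate check, no p-value was computed, and serum and line cannot be told apart.

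IGF1 and IGF2 are secreted peptides that act through IGF1R, a receptor tyrosine kinase that signals through the insulin receptor substrates to PI3K and AKT and through SHC and GRB2 to RAS and ERK. IGF2R carries no kinase; it takes up IGF2 and mannose 6-phosphate-tagged enzymes and sends them to lysosomes. The binding proteins hold IGFs outside the cell, prolong or block their action, and are cut by proteases that set the ligand free. Endothelial cells are known both to respond to IGFs and to secrete binding proteins.

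A signal below was taken as above background when it passed 16.3 in MS-1 or 17.6 in SVEC4-10, the level of probe sets for odorant, pheromone and taste receptors and hair keratin-associated proteins. Ratios are log2 ratios of SVEC4-10 over MS-1, and a fold written as "at least" sets a signal against the background of the other array. Their error was taken from how far probe sets for 1 gene disagreed, as a standard deviation. It was 0.49 over 4406 genes with several probe sets above background on both arrays. For those of low, middle and high signal it was 0.57, 0.47 and 0.42. It holds no variation between cultures. The 3'/5' signal ratios were alike on the MS-1 and SVEC4-10 arrays (0.809 and 0.812 for Gapdh, 1.22 and 1.27 for beta-actin). The poly-A spike-in controls were 1.46-fold higher in SVEC4-10. Scaling to them lowers every log2 ratio by 0.54 and turned the direction of none of the 9 measured members, and the share of genes at least 4-fold apart that were higher in SVEC4-10 fell from 57.2% to 35.7%.

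The labelled cell type was checked against marker lists. All 11 measured endothelial markers of 12 listed were at least 4-fold higher in MS-1, and in SVEC4-10 Kdr (signal 21.9) and Eng (24.6) were the 2 above background. The summed signal of that list was 25833 in MS-1 and 119 in SVEC4-10. The reverse held for 10 fibroblast and mesenchymal markers (106 and 24406; 7 of 8 measured at least 4-fold higher in SVEC4-10) and for 7 mesothelial markers (218 and 17345; 6 of 7). Leukocyte markers summed to 117 and 60.7, and Ptprc, the pan-leukocyte antigen CD45, was not above background on either array. By these lists the endothelial label was borne out for MS-1 and not for SVEC4-10. In such bulk RNA, fewer cells of a type and less RNA per cell cannot be told apart. The part of these marker differences in the IGF family values was not tested.

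Of the 10 genes, 9 passed background in at least 1 line. By the brightest probe set of each gene, which is the one with the highest mean of its log2 signals over both arrays, 5 were at least 4-fold higher in SVEC4-10 (Igf2, Igfbp2, Igfbp3, Igfbp6 and Igfbp7), whereas 5.6% of the 12583 measured genes were. One gene, Igfbp4, was at least 4-fold higher in MS-1, against 4.2% of measured genes. These 6 genes compare with 9.8% of measured genes that were 4-fold apart either way. At 2-fold the numbers were 7 and 1, against 15.1% and 12% of measured genes. The median log2 ratio of the 9 genes was 3.40, with genes at background on 1 array entered at their bound, and that of all measured genes was 0.018. The ratios of Igfbp6, Igfbp2 and Igf2 differed by less than 0.69, the error of a difference between a pair of log2 ratios. The values of Igfbp2 and Igf2 are bounds, so their likeness is not settled. Igf1r and Igf1 also differed by less than 0.69, but the Igf1 value (1.16) is from its probe set of smallest ratio. Another Igf1 probe set gave at least 3.68, so this likeness depends on the probe set.

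**Figure D1:**
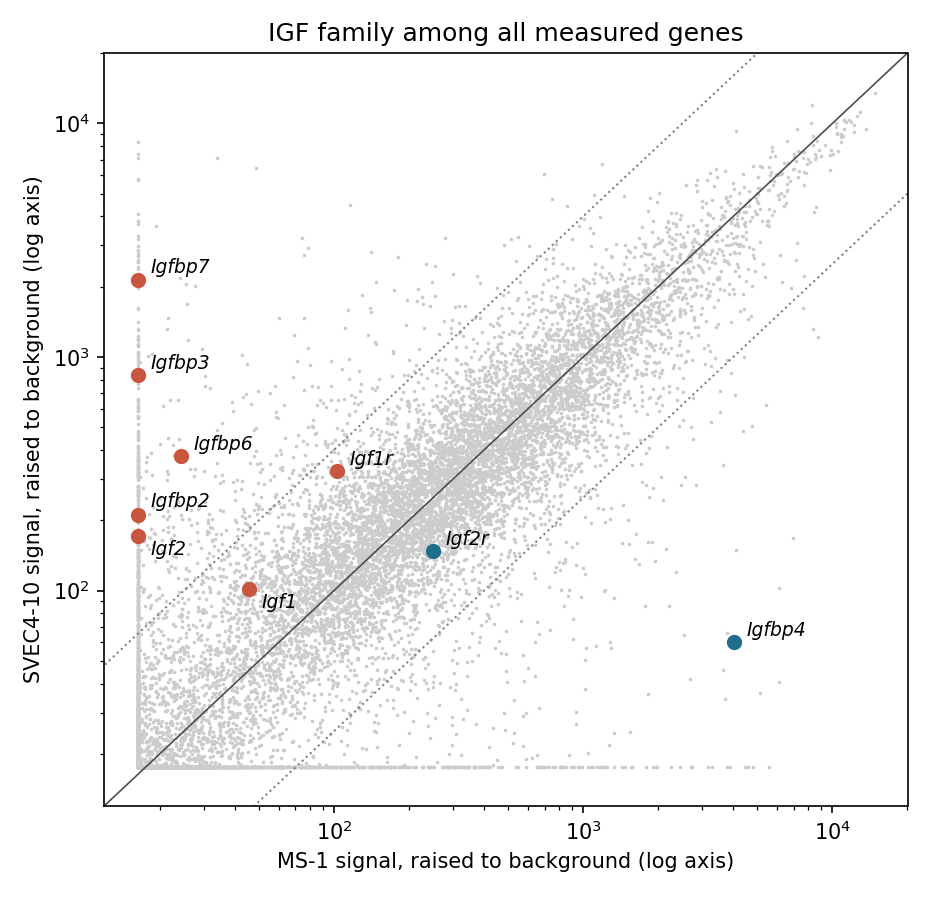
Signal of each of the 12583 measured genes in MS-1 (x axis) and the SVEC4-10 array (y axis), both log axes in units of deposited intensity with values raised to background. Coloured points are the 9 measured IGF family genes, the solid line marks equal signal and the dotted lines a 4-fold difference. Igfbp4 lies far to the lower right and 5 members lie above the upper dotted line, 4 of them on the MS-1 background.

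Both ligand genes had low signals with the higher value in SVEC4-10. Igf1, the ligand that mediates most growth hormone action, had 4 probe sets, all measured. Their MS-1 signals were 27.1, 17.2, 15.8 and 45.4, and the matching SVEC4-10 signals were 80.2, 147, 209 and 102. Every Igf1 probe set was higher in SVEC4-10, and the MS-1 signals ranged from just under background to 45.4. The sizes of the difference did not match between probe sets: the log2 ratios were 1.57, 3.10, at least 3.68 and 1.16 in the same order, so 2 of the 4 reached 4-fold. The value used for the gene comes from the fourth probe set, which had the highest mean log2 signal and the smallest ratio, 2.24-fold. The probe set with the highest SVEC4-10 signal gave at least 12.8-fold, so the choice of probe set decides whether Igf1 passes 4-fold. The one used is of a class that can match further transcripts, and without such classes the Igf1 value was 3.68. Scaled to the poly-A controls, the value of 1.16 became 0.62.

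Igf2, the imprinted ligand of fetal growth, had 2 probe sets. The first gave 9.09 in MS-1 and 172 in SVEC4-10, a difference of at least 10.5-fold. The second gave 7.01 and 2.88 and was not above background on either array, so the Igf2 difference rests on 1 probe set. Ins2, the insulin gene next to Igf2, stayed below background in both lines (2.87 and 4.34).

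**Figure D2:**
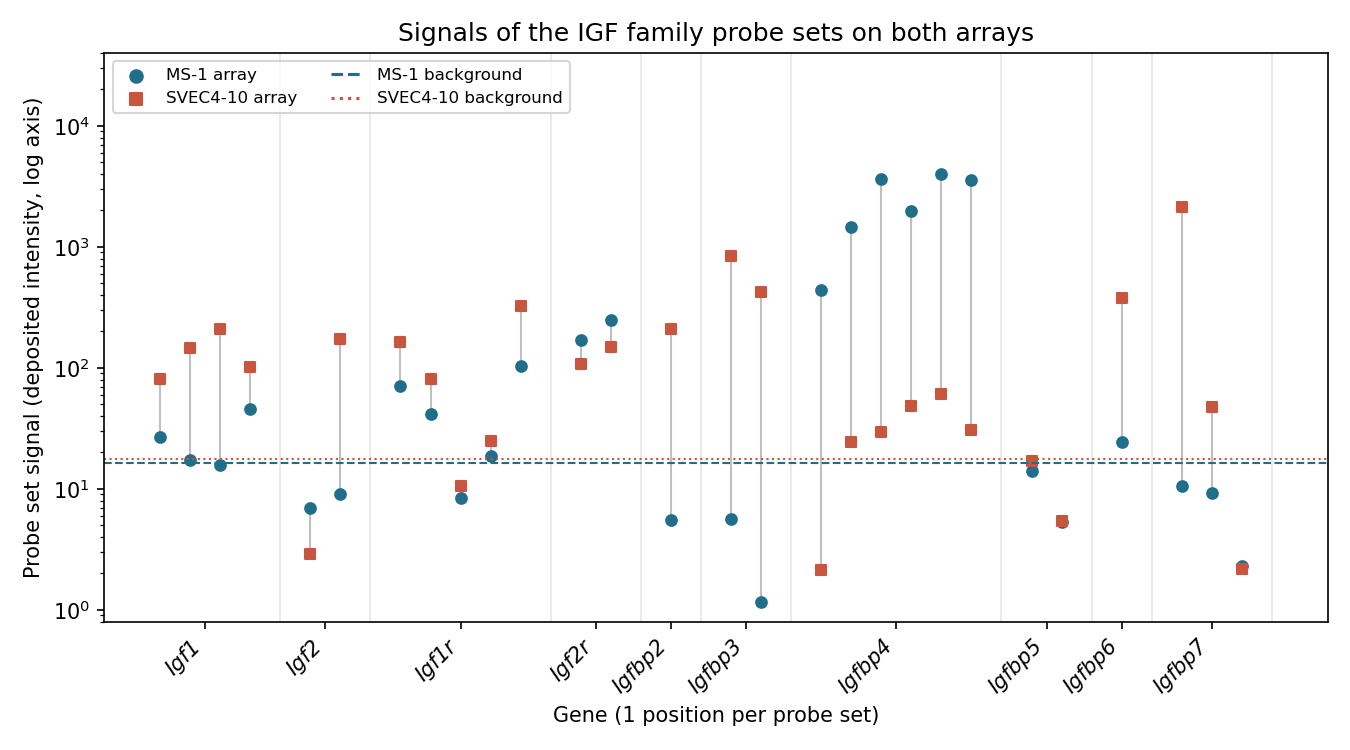
Signal of each of the 28 probe sets of the 10 genes (1 position per probe set) in MS-1 (circles) and the SVEC4-10 array (squares), on a log axis in units of deposited intensity. Dashed and dotted lines mark the backgrounds of 16.3 in MS-1 and 17.6 in SVEC4-10. All 6 Igfbp4 probe sets are higher in MS-1, and the probe sets of Igfbp7 differ widely. The signals of both Igfbp5 probe sets lie below the line of their own array.

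Neither receptor was 4-fold apart, and both were above background on both arrays. Igf1r, the signalling receptor, had 5 probe sets, 4 of them measured. Their MS-1 signals were 70.6, 41.6, 18.5 and 103 and the SVEC4-10 signals 165, 80.4, 24.7 and 325. All 4 were higher in SVEC4-10, with log2 ratios of 1.22, 0.95, 0.42 and 1.65, or 3.15-fold for the brightest. The smallest of these was within the error of 0.49, and the fifth probe set (8.42 and 10.6) was not above background. Scaled to the poly-A controls, the Igf1r value became 1.11.

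Igf2r, the scavenging receptor, went the other way. Its 2 probe sets had signals of 170 and 250 in MS-1 and 108 and 148 in SVEC4-10. The log2 ratios of -0.65 and -0.76 were close to each other, exceeded 1 error and stayed under 2-fold; scaled to the poly-A controls the value was -1.30. Igf1r and Igf2r thus differed in direction, by 2.41 on the log2 scale between the probe sets used, where the error of such a difference was 0.69.

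Of the 6 binding proteins, 4 were at least 4-fold higher in SVEC4-10 (5.6% of all measured genes were), 1 in MS-1 (4.2%), and 1 was at background on both. Igfbp4, which blocks IGF action until the protease pappalysin cuts it, was the member with the reverse direction. Its 6 probe sets had MS-1 signals from 444 to 4018 and SVEC4-10 signals from 2.15 to 60.2. The ranges of the arrays did not overlap, but 6 probe sets of 1 gene on 1 array are no replicates of a line. The log2 ratios ran from -6.96 to -4.65, the last being a bound. By the brightest probe set Igfbp4 was 66.7-fold higher in MS-1 (log2 ratio -6.06), and 0.27% of measured genes had a ratio this low or lower. All 6 belong to probe set classes that can also match further transcripts of the gene, related genes or other sequences, as does the probe set of Igfbp2. The 5 Igfbp4 probe sets other than the one at background on SVEC4-10 were above background on both arrays.

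Igfbp7, a matrix-associated protein of low affinity for IGFs, showed the family's largest ratio in the SVEC4-10 direction by the brightest probe set. One probe set gave 10.6 in MS-1 and 2142 in SVEC4-10, at least 131-fold. Another gave 9.18 and 47.9, at least 2.94-fold, and the third (2.28 and 2.19) was not above background. The MS-1 array was thus at background for all 3 Igfbp7 probe sets, while the height of the SVEC4-10 signal rested on 1 of them. The mean over both measured probe sets was a log2 ratio of 4.30, against 7.04 for the brighter one. By such a mean Igfbp3 stood higher, at 5.19. It also did by the probe set of smallest ratio, with 4.69 against 1.55 for Igfbp7. The rank of Igfbp7 thus depends on the probe set.

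Igfbp3, the main carrier of IGFs in blood, was at background in MS-1 by both of its probe sets (5.65 and 1.17). The SVEC4-10 signals were 839 and 420, at least 51.5-fold and at least 25.8-fold higher. Both Igfbp3 probe sets gave the same picture, with a signal in 1 line alone. Igfbp6, which prefers IGF2 over IGF1, was above background on both arrays by its single probe set, with 24.3 on MS-1 and 376 on SVEC4-10. It was 15.4-fold higher in SVEC4-10, a log2 ratio of 3.95. Igfbp2, which carries an integrin-binding sequence, had signals of 5.56 and 210 at its single probe set, at least 12.9-fold higher in SVEC4-10. Igfbp5, which binds to extracellular matrix, was not above background on either array at 2 probe sets (13.9 and 5.36 on MS-1, 16.9 and 5.41 on SVEC4-10). Igfbp1, the liver binding protein regulated by insulin and no member of the group, was also not above background (0.799 and 0.695).

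**Figure D3:**
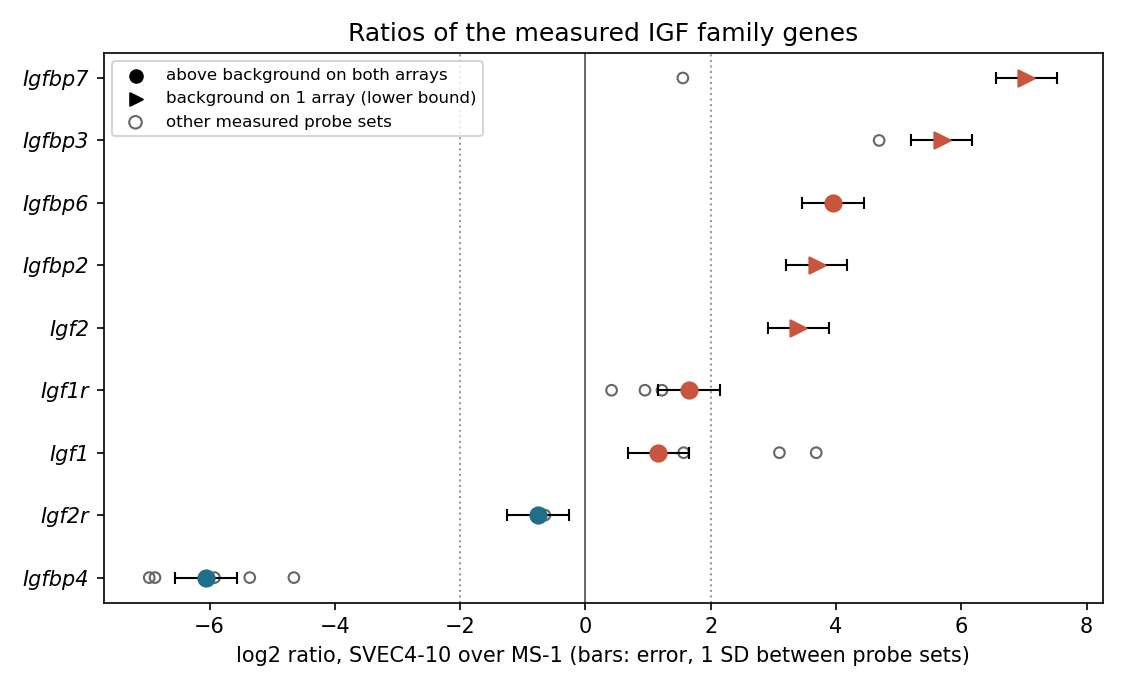
Log2 ratio of SVEC4-10 over MS-1 (x axis) for the 9 measured genes, ordered by ratio. Filled symbols show the brightest probe set with an error bar of 1 SD between probe sets (0.49). That error came from genes above background on both arrays and does not describe the triangles, which mark lower bounds against background. Open circles are the other measured probe sets, and dotted lines mark 4-fold. Igfbp4 stands at -6.06 and Igfbp7 at 7.04 or more. Outside the error bars of their filled symbols lie 2 of the 3 open circles of Igf1 and the open circle of Igfbp7. The open circle of Igfbp3 and some of those of Igf1r and Igfbp4 also lie outside.

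The promoters of the 5 binding protein genes at least 4-fold apart are shown because these genes stand at the ends of the family's range. Each line gives the 250 bases before a RefSeq transcript start (build GRCm38.p6), 5' to 3' on the strand of the gene. Capitals mark matches, on either strand, to 5 motifs. The letters TATAAA were searched for the core promoter element of that name. The letters GGGCGG were searched for the GC box that SP1 binds. The letters CCAAT were searched for the element bound by nuclear factor Y. The letters CACGTG were searched for the E-box of MYC and USF proteins. The letters TGAGTCA were searched for the element bound by AP-1. The windows lie at chr11:99040994-99041243 (plus strand), chr11:7213924-7214173 (minus), chr5:77408046-77408295 (minus), chr15:102143936-102144185 (plus) and chr1:72824230-72824479 (plus; the upstream one of 2 starts). The gene models of Igfbp4 and Igfbp3 begin 1239 and 1575 bases farther upstream than the starts used, so these windows can lie within a longer transcript.
Igfbp4: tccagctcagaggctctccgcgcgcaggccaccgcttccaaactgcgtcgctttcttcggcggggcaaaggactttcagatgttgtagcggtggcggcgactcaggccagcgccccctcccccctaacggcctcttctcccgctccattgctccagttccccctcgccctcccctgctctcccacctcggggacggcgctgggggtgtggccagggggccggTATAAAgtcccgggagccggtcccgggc
Igfbp3: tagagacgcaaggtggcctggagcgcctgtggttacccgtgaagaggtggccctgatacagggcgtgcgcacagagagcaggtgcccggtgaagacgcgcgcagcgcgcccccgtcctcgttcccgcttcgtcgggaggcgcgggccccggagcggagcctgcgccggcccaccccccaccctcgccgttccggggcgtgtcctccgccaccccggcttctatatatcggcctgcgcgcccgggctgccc
Igfbp7: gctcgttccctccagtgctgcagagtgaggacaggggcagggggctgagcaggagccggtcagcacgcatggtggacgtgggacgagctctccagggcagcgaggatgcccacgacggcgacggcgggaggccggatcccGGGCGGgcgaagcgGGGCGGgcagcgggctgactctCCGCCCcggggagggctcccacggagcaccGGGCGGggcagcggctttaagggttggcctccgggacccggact
Igfbp6: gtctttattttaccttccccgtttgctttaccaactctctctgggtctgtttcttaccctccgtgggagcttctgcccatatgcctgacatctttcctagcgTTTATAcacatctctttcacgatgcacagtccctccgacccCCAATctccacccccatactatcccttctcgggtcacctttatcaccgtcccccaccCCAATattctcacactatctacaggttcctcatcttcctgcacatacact
Igfbp2: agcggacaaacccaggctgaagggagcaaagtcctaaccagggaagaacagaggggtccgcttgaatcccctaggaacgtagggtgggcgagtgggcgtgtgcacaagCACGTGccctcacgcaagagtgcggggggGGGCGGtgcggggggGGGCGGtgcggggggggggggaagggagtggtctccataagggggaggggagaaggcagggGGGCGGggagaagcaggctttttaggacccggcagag

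In these letters, Igfbp4 had a TATAAA whose first base lies 28 bases before the start, and Igfbp6 had one, on the reverse strand, 148 bases before it. Over the 32851 windows of all genes, 12.4% held this element. GC boxes were found in the windows of Igfbp7 (4 matches) and Igfbp2 (3 matches), against 32.7% of all windows with at least 1, and Igfbp2 also held an E-box, found in 6.02%. Igfbp6 held 2 CCAAT boxes, a motif found in 33.8% of windows. None of the 5 motifs was in the Igfbp3 window, whose GC content of 73.2% was close to that of Igfbp7 (74%). No motif was present in all 4 windows of the genes higher in SVEC4-10. The AP-1 element was in none of the printed windows and in 4.46% of all windows. Motif letters are a description of these windows and were not measured on the arrays.

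Genes around the family were taken from 7 lists with 101 entries, also chosen with earlier results of these data known. In all, 75 of these genes were measured. Of these, 8 were at least 4-fold higher in SVEC4-10 (10.7%) and 6 in MS-1 (8%), against 5.6% and 4.2% of all measured genes, and 49 were not called at 2-fold. The lists below are read beside the same shares. Their median log2 ratio was -0.040, against 0.018 for all measured genes.

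Among the proteases that cut binding proteins and the inhibitors of those proteases, 10 of 14 were measured, 1 was at least 4-fold higher on each array and 5 were under 2-fold apart (median -0.30). Htra1, a serine protease that cuts Igfbp5 and other binding proteins, had signals of 4.61 and 1118, at least 68.6-fold higher in SVEC4-10. Stc1, a stanniocalcin, which belongs to a family of pappalysin inhibitors, had signals of 107 and 9.69, at least 6.07-fold higher in MS-1. The other Stc1 probe set (9.15 and 12.9) was not above background on either array. Pappa itself, the protease of Igfbp4, was not above background on either array at any of its probe sets. Htra1 was thus on the side of Igfbp2, Igfbp3, Igfbp6 and Igfbp7, and Stc1 on that of Igfbp4.

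Of 14 measured docking and receptor-proximal genes, 3 were at least 4-fold higher in SVEC4-10 and 0 in MS-1 (4 and 0 at 2-fold, median -0.20). Grb14, an adaptor that inhibits the insulin receptor, had signals of 11.0 and 312, at least 19.1-fold higher in SVEC4-10. The other Grb14 probe set (0.242 and 8.13) was not above background on either array. Irs1, the docking protein of IGF1R, had signals of 48.8 and 498, a 10.2-fold difference at a single probe set. Gab1, a docking protein of several growth factor receptors, was 5.37-fold higher in SVEC4-10, with log2 ratios of 1.66 to 2.43 over 3 probe sets. Irs2, a second docking protein of the receptor, had signals of 3.23 and 44.6, at least 2.74-fold higher in SVEC4-10.

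In the PI3K, AKT and mTOR arm 25 of 28 genes were measured, 3 were at least 4-fold higher in SVEC4-10, 0 in MS-1, and 19 were under 2-fold apart (median 0.12). The 3 were the PI3K regulatory subunits Pik3r1 (63.5 and 452, 7.11-fold) and Pik3r2 (91.7 and 435, 4.75-fold) and the kinase Akt2 (60.5 and 335, 5.55-fold). The lowest log2 ratio among the probe sets of Pik3r1 was 0.86 and among those of Akt2 it was 1.33, so neither reached 4-fold at every probe set. Akt1 went the other way with signals of 1330 and 640, 2.08-fold higher in MS-1 (other probe sets up to -0.14). None of 7 measured genes of the RAS and ERK arm was 4-fold apart (median 0.30). Rasa1, a RAS GTPase-activating protein, stood at 1.02, the kinases Map2k2 and Araf at 0.94 and -0.38, and the second probe set of Map2k2 at -1.13. The other measured probe sets of Araf went the other way, at 0.50, 0.17 and 0.44.

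**Figure D4:**
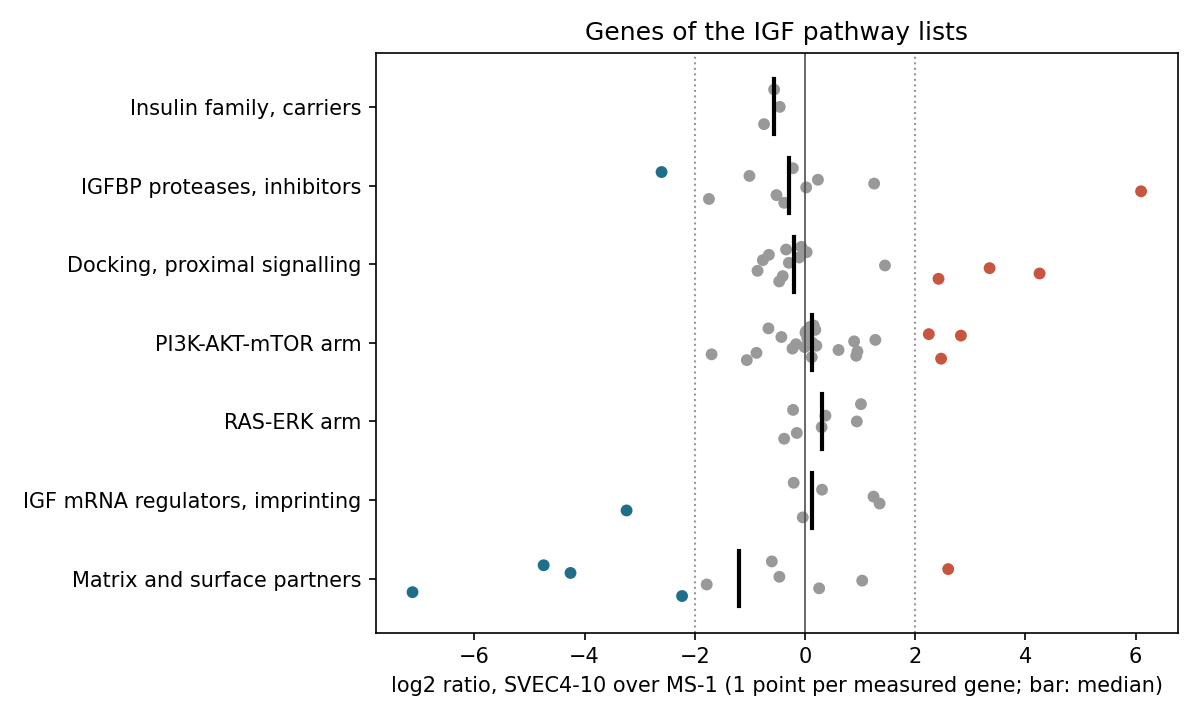
Log2 ratio of SVEC4-10 over MS-1 (x axis) for each measured gene of the 7 pathway lists, with the median as a black bar and dotted lines at 4-fold. Coloured points are at least 4-fold apart and include 3 docking genes and 3 PI3K and AKT genes on the SVEC4-10 side, and 4 matrix and surface partners on the MS-1 side.

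Among matrix and surface partners of the binding proteins, 10 of 13 were measured, 1 was at least 4-fold higher in SVEC4-10 and 4 in MS-1 (median -1.19). Cd93, an endothelial surface protein that binds Igfbp7, had signals of 2455 and 8.56 at its brightest probe set, at least 139-fold higher in MS-1. Another Cd93 probe set (1770 and 0.438) gave a log2 ratio of at most -6.65. The probe set above background on both arrays (70.9 and 18.0) gave -1.98. A further one gave at most -2.08, and the last was near background in MS-1 (17.1). Cd93 and Igfbp7 were thus high on opposite arrays. By their brightest probe sets Ptprb, an endothelial receptor phosphatase, was at least 26.8-fold higher in MS-1 and Itgb3, an integrin beta subunit, at least 19.1-fold. The other Ptprb probe sets gave at least 24.9-fold and at least 2.39-fold. The other Itgb3 probe set (104 and 26.4) was above background on both arrays and 3.95-fold higher in MS-1. Cav1, the caveolar coat protein, was 4.69-fold higher in MS-1. Lrp1, a scavenger receptor that binds Igfbp3, was the gene on the other side, with signals of 82.3 and 499, 6.06-fold higher in SVEC4-10. Ptprb, Cav1 and Cd93 are also known as endothelial genes, and the 11 measured endothelial markers were all higher in MS-1. The part of that difference was not tested.

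Of 6 measured regulators of IGF mRNA and imprinting genes, 1 was at least 4-fold apart (median 0.14). Hmga2, a chromatin protein that raises Igf2bp2 transcription, had signals of 4768 and 506, 9.43-fold higher in MS-1, and its 4 probe sets ranged from -4.63 to -0.53. The mRNA-binding proteins Igf2bp1 and Igf2bp3 were 2.56-fold and 2.37-fold higher in SVEC4-10. Of the remaining insulin family receptors and carriers, 3 were measured and 0 were called at 2-fold (median -0.56): Insr, the insulin receptor, stood at -0.56, Ghr, the growth hormone receptor, at -0.74 and Igfbpl1 at -0.46 or lower. Igfals, the acid-labile subunit that joins Igfbp3 in blood, was not above background on either array.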

How the data were processed

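Biotin-labelled cRNA from 1 culture per line was put on Affymetrix arrays, per the labels' protocols. What the authors deposited are linear probe set intensities; the software behind them is not given in the sources used here. On each array the 2%-trimmed mean was 150.001, so the authors had scaled both alike; no further scaling was applied. Of 45101 probe sets, 34945 had 1 gene (34741 matched by gene identifier to RefSeq, GRCm38.p6), 932 had several, 9160 were unnamed here and 64 were controls. The 95th percentile of 129 receptor and keratin-associated probe sets served as background. Each value was raised to it before the log2 ratio, and each gene was represented by its brightest probe set above background on at least 1 array, avoiding the cross-hybridising class. No test was possible; the number of arrays limits the precision.

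Named were all 10 members and, per pathway list, genes at least 4-fold apart, or the 3 largest ratios where under 2 were; a few others illustrate a count. Members and lists were chosen with earlier results of these data known. Scaling, background, probe set rule and threshold were varied. The steps were tested on simulated arrays (Python 3.11.15, pandas 2.3.3, scipy 1.17.1). Promoter sequences were from RefSeq, GRCm38.p6, matched by symbol for all 10 members.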

Additional observations from a re-analysis of the deposited data

How the results depend on the processing

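No paired analysis was possible because each line has 1 array and the lines share a single replicate number. The count of 5 members at least 4-fold higher in SVEC4-10 ranged from 4 to 6 over the alternatives other than the 2-fold threshold (7), and its members changed. With the probe set of smallest ratio Igfbp7 was no longer among them (1.55), and with the mean over probe sets Igf1 joined (2.38). Without the less specific probe set classes no probe set of Igfbp2 or Igfbp4 was left, Igf1 (3.68) took the place of Igfbp2, and 0 members were 4-fold higher in MS-1. No log2 ratio of a member changed sign. Over the alternatives, Igf1 ranged from 0.62 to 3.68, Igf1r from 0.42 to 1.65, Igf2r from -1.30 to -0.65, Igfbp4 from -6.60 to -4.65, Igfbp3 from 4.69 to 7.21 and Igfbp7 from 1.55 (the probe set of smallest ratio) to 7.66 (no background floor). Bounds against background fall by 1 when the background is doubled, by construction.

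Over all genes, scaling to the poly-A controls gave 867 genes at least 4-fold higher in MS-1. Without a background floor the counts were 1064 on SVEC4-10 and 924 on MS-1. They were 1904 and 1506 at 2-fold and 342 and 279 at 8-fold. Where 1 array was at background (Igf2, Igfbp2, Igfbp3 and Igfbp7), the ratio is a bound only.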

Other observations

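The protein-coding genes next to the family on the chromosome (up to 2 on each side, in RefSeq order) were read on the same arrays. Of 36 such genes, 16 were measured, 13 were not above background, 2 were at least 4-fold higher in SVEC4-10 and 0 in MS-1, with a median log2 ratio of -0.11. The share 4-fold apart was 12.5%, against 9.8% of all measured genes. The 2 were Adcy1, an adenylyl cyclase near Igfbp3 (3.03 and 128, at least 7.88-fold), and Csad, a taurine synthesis enzyme near Igfbp6 (42.6 and 209, 4.91-fold). Igfbp2 and Igfbp5 are adjacent on chromosome 1, where Igfbp2 had a signal of 210 in SVEC4-10 and Igfbp5 was at background. Igfbp1 and Igfbp3 are adjacent on chromosome 11, where Igfbp3 had 839 and Igfbp1 was at background. Top2a, the DNA topoisomerase next to Igfbp4, had signals of 2387 and 2152, a log2 ratio of -0.15.

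Tensin genes, which encode focal adhesion proteins, lie within 2 genes of Igfbp3, Igfbp4, Igfbp5 and Igfbp6. Tns3, beside Igfbp3, had a log2 ratio of 0.75, and Tns1, near Igfbp5, one of 1.05. Tns2, near Igfbp6, was 2.30-fold higher in MS-1, whereas Igfbp6 was 15.4-fold higher in SVEC4-10. Tns4, beside Igfbp4, was not above background on either array.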
